A study of Mus musculus with 2 samples.

Results

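The proteasome genes of the mouse retina were examined in a single-cell RNA-seq experiment on sorted retinal cells, of which most were rod photoreceptors. Members were all genes whose symbol is Psma, Psmb, Psmc, Psmd, Psme or Psmg followed by a number. Of the 31053 genes in the expression matrix, 49 fit this rule. One match, Psmc3ip, carries the name of an interaction partner and is not a subunit, so it was kept out of all sums and 48 genes were analysed.

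In the study, retinas of newborn wild-type mice were electroporated with a plasmid that carries a green fluorescent reporter alone (Control), or the reporter together with lamin A (Lmna) or with Lbr, the lamin B receptor. Fluorescent viable cells were sorted from the adult retinas. Cells of each condition received a lipid-anchored oligonucleotide tag and were then mixed, and the mixture was loaded on a 10x Genomics Chromium device as 1 run. The study had 3 conditions and 3 tags, but the labels do not say which tag marks which condition, so the tags are called tag 1, tag 2 and tag 3. All cells share the electroporation and the sort. Cells other than rods can carry the reporter, but the paper states that cones, which are generated only in the embryo, are never transfected. Whether the non-rod barcodes below carried a plasmid was not tested. Neither the labels nor the methods give the number of animals per tag.

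The matrix held 834 cell barcodes with 500 to 85822 unique molecular identifiers (UMIs, each standing for a captured RNA molecule) and a median of 2395. Rods were the barcodes of rod-like clusters that had 200 to 2500 detected genes, at most 18% mitochondrial UMIs and no doublet call. This left 342 rods with 964633 UMIs, of which 330 were called to a tag: 182 to tag 1, 128 to tag 2 and 20 to tag 3. The 3 groups of rods held 544257, 331067 and 54684 UMIs. All 15 rod markers were detected in the rods of each tag, at a summed level of 90886 to 127887 counts per 1000000 UMIs (CPM), and 10 of 11 microglia markers were at 0 in the 342 rods. Each tag was a single pool of cells, so no test was possible, and every interval below covers counting error only.

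The proteasome is the protease that degrades proteins marked with ubiquitin. Its barrel-shaped core particle (20S) is built of outer alpha rings and inner beta rings, and the beta subunits Psmb5, Psmb6 and Psmb7 carry the proteolytic sites. A regulatory cap (19S) recognises, deubiquitinates, unfolds and feeds in substrates through a ring of ATPases (Psmc genes), a few non-ATPase base subunits and a lid (Psmd genes). In immune cells and after interferon signalling, Psmb8, Psmb9 and Psmb10 replace the constitutive catalytic subunits and form the immunoproteasome, which makes peptides for antigen presentation. The activators Psme1 and Psme2 bind the core without ubiquitin recognition. Rods renew their outer segments daily and turn over much protein, and their proteasome capacity has been studied in retinal degeneration.

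All 49 gene identifiers were found in the GENCODE M21 annotation of mm10 as protein-coding genes, spread over 16 chromosomes with 10 on chromosome 11 and 6 on chromosome 14. On chromosome 14, the gene for the catalytic subunit Psmb5 (54614119 to 54618022) lies close to Psmb11 (54621433 to 54629556), the beta subunit of the thymus. The activator genes Psme1 (55578123 to 55581529) and Psme2 (55587441 to 55591113) are also neighbours there. The immunoproteasome genes Psmb8 (34197721 to 34201454) and Psmb9 (34181987 to 34187764) sit side by side on chromosome 17. Another gene on the same strand overlaps 10 of the 49 genes, so reads in these overlaps could have been discarded. A gene on the opposite strand overlaps 19, and the part of either kind of overlap in the counts was not tested.

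Promoter windows from 250 bases before to 50 after the RefSeq start (build GRCm38.p6) were given for 40 members in 43 windows, and not for Psma8, Psmb1, Psmb2, Psmb7, Psmc3, Psmd3, Psmd7 and Psmg2. The 3 stretches below are shown because they lie upstream of Psmb5 and Psmb6, the constitutive catalytic subunits with most UMIs in rods, and of Psma3, the alpha subunit with most. All are written 5′ to 3′ on the strand of the gene and overlap no annotated exon. Capitals mark TGACNNNGC, the core of the antioxidant response element through which Nrf-family factors act, in the first pair, and CCAAT, the box bound by NF-Y, in Psma3.
Psmb5, chr14:54618023-54618172, minus strand: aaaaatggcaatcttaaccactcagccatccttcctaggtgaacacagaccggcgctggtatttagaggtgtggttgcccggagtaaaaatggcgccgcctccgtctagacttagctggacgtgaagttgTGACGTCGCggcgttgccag
Psmb6, chr11:70525207-70525356, plus strand: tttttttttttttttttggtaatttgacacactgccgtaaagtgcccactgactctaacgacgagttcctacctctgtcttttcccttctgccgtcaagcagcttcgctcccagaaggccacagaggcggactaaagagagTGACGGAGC
Psma3, chr12:70974471-70974620, plus strand: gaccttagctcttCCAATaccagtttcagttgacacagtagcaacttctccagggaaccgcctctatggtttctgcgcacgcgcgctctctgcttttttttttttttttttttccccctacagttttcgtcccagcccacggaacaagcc

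The match of TGACNNNGC began 47 bases before the start in Psmb5 and 9 bases before it in Psmb6. On either strand, 6 of 43 member windows (14.0%) held this motif, against 12.4% of all 32851 windows. CCAAT was in 14 member windows (32.6%) against 37.4% of all windows, and 5 of the 8 alpha ring windows held it. Both shares over the members were near those of all promoters. For interferon signalling, TTCNNNGAA and the interferon-stimulated response element (a pair of GAAA blocks separated by 2 bases) were added to the search after gene levels had been seen. The latter element was in 5 member windows (11.6%) against 3.44% of all. These were the windows of Psmb3, Psmd4, Psmd9, Psmg4 and Psme1, and 0 of the 4 windows of Psmb8 to Psmb11 held it. TTCNNNGAA was in 3 member windows (6.98%) against 8.30% of all, those of Psmb8, Psmd2 and Psmg1. In Psmb8 the match began 97 bases before the start. These matches are descriptions of the letters in the windows.

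Proteasome mRNA was present in nearly every rod. The 48 members together held 5442 UMIs in the 342 rods, which is 0.564% of all UMIs (95% exact interval 0.549% to 0.579%), and 45 of the 48 had at least 1 UMI. A rod carried UMIs of a median of 5 members (quartiles 3 and 7, highest 14), and 5 of the 342 rods carried none. Psma8, the alpha subunit of the testis, Psmb9 and Psmb11 were at 0 in the rods, which allows up to 3 UMIs in 964633 for each. When a rod had a UMI of a member at all, it had 2 or more in 71.9% of cases, the same share as over all genes. UMIs of a gene thus clumped within cells, and intervals based on UMI counts are too narrow.

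The core dominated the count. The alpha and beta rings together held 3072 UMIs (56.4% of those in members), and the base and lid of the cap held 2049 (37.7%). The chaperones that assemble the core held 172 UMIs, those that assemble the cap 80, the activators 56 and the inducible beta subunits 13. UMIs are meant to count molecules and not read coverage, so levels are compared here between genes as CPM of summed UMIs, with no scaling to length. Since UMIs clumped within cells, an order by UMIs can differ from one by rods with a UMI. Psma3 was found in 105 rods and Psmb6 in 100, and Psmb1 in 84 and Psmb5 in 73.

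Within the beta ring, levels ranged 8.23-fold. Psmb6, the caspase-like catalytic subunit, was the member with most UMIs (395 UMIs, 409 CPM, 95% Poisson interval 370 to 452), and it ranked 335 among the 10077 genes with a UMI in rods. Psmb5, the chymotrypsin-like subunit, followed at 328 CPM (292 to 366), and the structural subunit Psmb1 was at 310 CPM (276 to 347). Psmb5 and Psmb1 could not be placed in order, because their intervals overlapped. Psmb7, the trypsin-like subunit, was at 49.8 CPM (36.7 to 66.0) with 48 UMIs in 26 of 342 rods, far below the other catalytic subunits although the subunits are present in equal numbers in an assembled particle. In the annotation, Psmb7 is overlapped by Gm27634 on its own strand, and the part of this overlap in the low value was not tested. The low level of Psmb7 beside Psmb5 and Psmb6 also held in rod-like barcodes without any filter (67.6 against 298 and 389 CPM) and in bipolar-like barcodes (48.2 against 253 and 331 CPM).

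Levels in the alpha ring, which gates the entry to the core, ranged 3.56-fold among the 7 subunits detected. Psma3 had 335 UMIs (347 CPM), Psma2 308 and Psma7 302, with overlapping intervals. Psma5 was the lowest with 94 UMIs. In the ATPase ring, which unfolds substrates, the range was 2.58-fold from Psmc6 (204 UMIs) to Psmc1 (79), with Psmc5 (203) and Psmc3 (170) near the top. Of the remaining base subunits, the ubiquitin receptor Psmd4 had 204 UMIs, and the scaffolds Psmd2 and Psmd1 had 90 and 63. In the lid, Psmd8 stood highest with 279 UMIs, followed by Psmd12 with 139 and Psmd7 with 107, and Psmd3 was lowest with 34. The place of Psmd12 rests on 1 rod that held 56 of its UMIs. It was found in 25 rods, against 30 for Psmd7 and 26 for Psmd11 (85 UMIs). Psmd14, the deubiquitinase of the lid, had 50 UMIs.

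Among assembly factors, Psmg4 had 72 UMIs, Psmg2 63 and Psmg1 29, and all are chaperones of the core. The cap chaperones Psmd9, Psmd5 and Psmd10 had 29, 28 and 23 UMIs. Pomp, the maturation factor of the core, is outside the symbol rule but in the list of other pathway genes, and with 381 UMIs it was near the level of Psmb6. Of those listed genes, the ubiquitin genes Ubb (3240 UMIs) and Rps27a (2143) exceeded every subunit, while the transcription factors Nfe2l1 and Nfe2l2, which act on proteasome genes, had 24 and 5 UMIs.

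**Figure D1:**
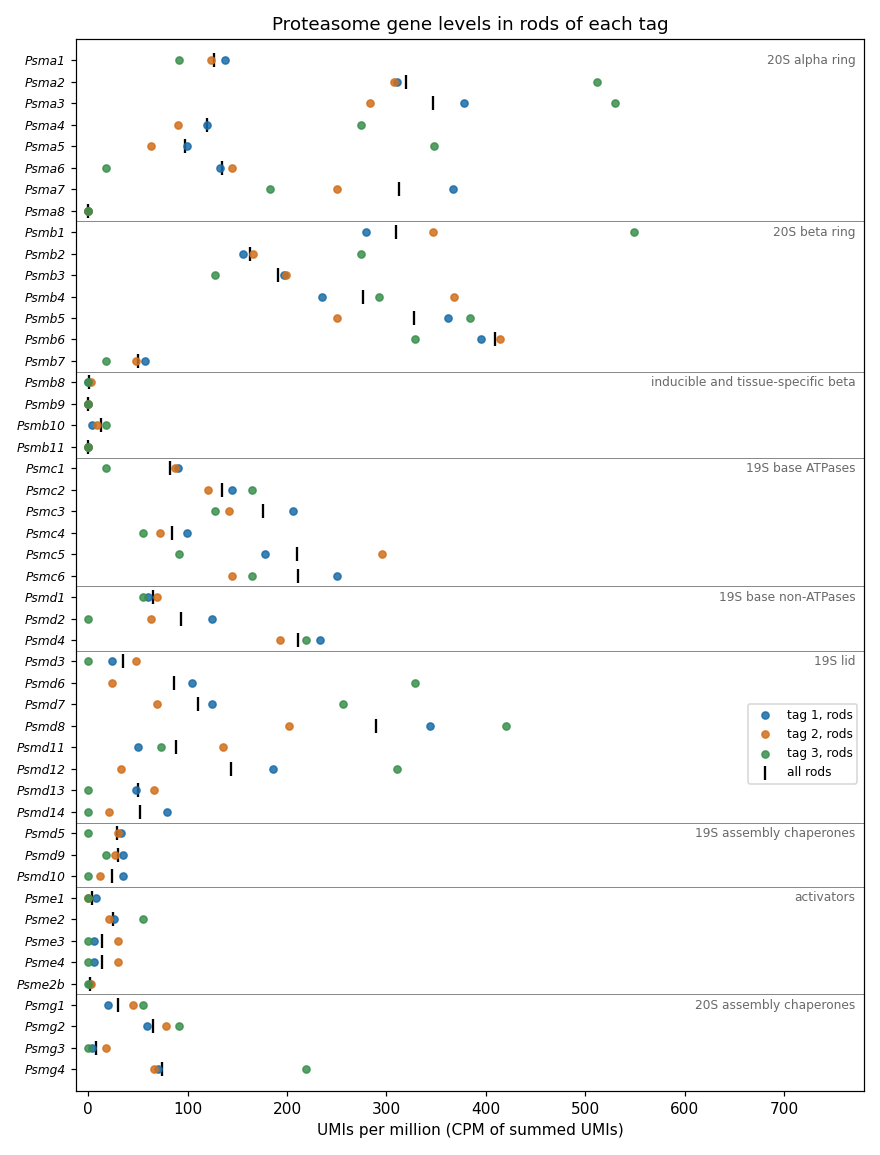
Level of each of the 48 proteasome genes (CPM of summed UMIs, linear axis) in the rods of each tag, as points, and in all 342 rods, as a black bar. Genes are grouped by structure, core subunits lie furthest to the right, and the inducible subunits and activators lie close to 0.

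Between tags, the summed proteasome level differed by little. The members' share of UMIs was 0.588% in rods of tag 1 (0.568% to 0.608%). It was 0.523% in those of tag 2 (0.498% to 0.548%) and 0.667% in those of tag 3 (0.601% to 0.739%). On the log2 scale, tag 2 over tag 1 was -0.17 (95% exact interval -0.25 to -0.08), tag 3 over tag 1 was 0.19 (0.02 to 0.34) and tag 3 over tag 2 was 0.35 (0.19 to 0.52). The 3 ratios share tags and are not independent. The order of the tags was the same among UMIs outside mitochondrial genes, Malat1 and haemoglobin, with 0.662%, 0.608% and 0.756%. The median mitochondrial share of the rods was 11.0%, 14.3% and 11.1% in tags 1, 2 and 3, and the second scaling leaves mitochondrial UMIs out. With all members summed, tag 2 over tag 1 was at 0.06 in the 47 and 23 rods with a strict tag call. Tag 3 over tag 1 was -0.03 when the cell with most UMIs was left out for each gene, so neither direction held under every setting. For each gene, the latter setting takes out 1 of 20 rods in tag 3 but 1 of 182 in tag 1. With it, the share went from 0.667% to 0.567% in tag 3 and from 0.588% to 0.580% in tag 1. Because it weighs more on tag 3, this setting cannot decide the direction.

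Summed markers of cones, Müller glia and bipolar cells followed the same order of tags as the summed level, while those of amacrine cells, ganglion cells and microglia were highest in tag 1. In rods of tags 1, 2 and 3, the 10 cone markers summed to 549, 63.4 and 1335 CPM, with 6, 3 and 2 of them detected and Opn1mw and Pde6c at 0 in each tag. The 11 Müller glia markers summed to 821, 598 and 1006 CPM, with 8, 4 and 2 detected, and Slc1a3 was at 0 in each tag. The 11 bipolar markers summed to 75.3, 21.1 and 110 CPM, with 4, 2 and 1 detected, and Trpm1 and Grm6 were at 0 in each tag. Rod markers ran in the opposite order, at 112004, 127887 and 90886 CPM. The part of these levels in the differences between tags was not tested.

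Among the structural groups, the lid had the lowest ratio of tag 2 over tag 1. In tags 1, 2 and 3, its 8 subunits held 522, 199 and 76 UMIs (959, 601 and 1390 CPM). Tag 2 over tag 1 gave a log2 ratio of -0.67 (-0.92 to -0.44) for the lid, while the alpha ring was at -0.29 (-0.46 to -0.12), the ATPases at -0.16 (-0.38 to 0.05) and the beta ring at 0.09 (-0.06 to 0.24). Below 0 were also the cap chaperones at -0.55 (-1.33 to 0.16) and the base non-ATPases at -0.36 (-0.70 to -0.02). Above it were the core chaperones at 0.45 (-0.03 to 0.93), the activators at 0.88 (0.05 to 1.72) and the inducible group at 1.57 (-1.09 to 5.18). The lid ratio kept its sign in all 11 other settings, between -0.75 and -0.43. The lid was picked for this low ratio, and all settings draw on the same 3 pools of cells. A lid UMI was found in 54.9% of rods of tag 1, 35.9% of tag 2 and 55.0% of tag 3. After each rod was thinned to 1300 UMIs, which left 163, 118 and 17 rods, these shares were 47.9% (95% exact interval 40.0% to 55.8%), 33.1% (24.7% to 42.3%) and 58.8% (32.9% to 81.6%). The intervals of tags 1 and 2 overlapped slightly after thinning.

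In tag 3 the lid was higher than in the other tags when all 20 rods were counted, at a log2 ratio over tag 1 of 0.54 (0.17 to 0.88), and over tag 2 of 1.22 (0.81 to 1.60). The alpha ring was at 0.35 (0.04 to 0.63) over tag 1 and the core chaperones at 1.29 (0.48 to 1.98), while the ATPases were at -0.62 (-1.18 to -0.14). These values rest on 20 rods, with 76 lid, 107 alpha ring, 20 chaperone and 34 ATPase UMIs. With a strict tag call, which left 3 rods of tag 3, the lid ratio was -0.59 over tag 1 and 0.022 over tag 2, and the ATPase ratio over tag 1 was 0.49. With 1 count per gene and cell, the lid ratio of tag 3 over tag 2 was 0.71, and with no filter on cells it was 0.78. In all cells of a tag that passed the filter, the alpha ring ratio of tag 3 over tag 1 was -0.03.

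**Figure D2:**
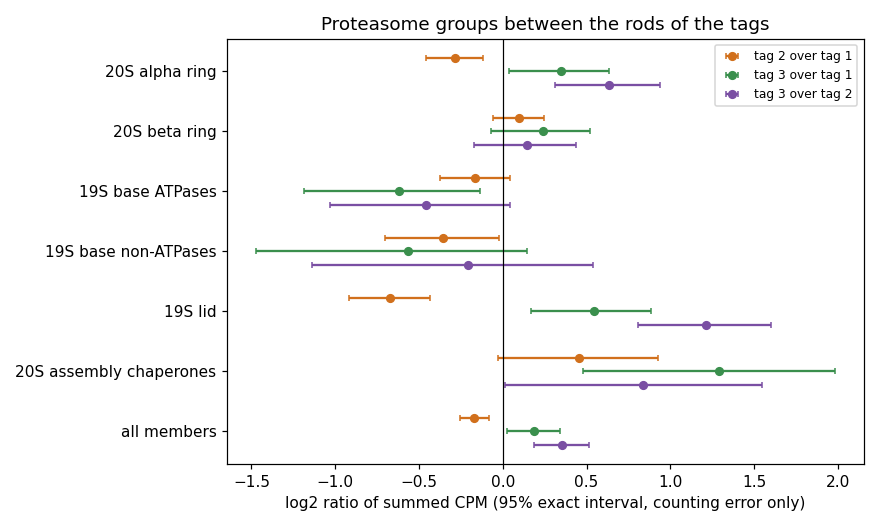
Log2 ratio of summed CPM between the rods of 2 tags for 6 structural groups and for all 48 members, with 95% exact intervals for counting error only. The lid lies at -0.67 for tag 2 over tag 1 and at 1.22 for tag 3 over tag 2 (0.022 with a strict tag call, not drawn), and the beta ring intervals include 0 in all 3 pairs.

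Member by member, 29 of 48 genes had at least 20 expected UMIs in both tag 1 and tag 2. Of these, 3 were higher in tag 2 by 1.5-fold or more and 7 were lower, while over all 2177 genes tested 13.2% were higher and 20.2% lower by that much. The counts of members were near this background. The median log2 ratio of the 29 was -0.26, against -0.06 over all genes tested.

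In the lid, 4 subunits were lower in tag 2, and among them Psmd12 and Psmd6 had the largest differences of all members tested. In tags 1, 2 and 3, the lid scaffold Psmd12 had 101, 11 and 17 UMIs, and tag 2 over tag 1 gave a log2 ratio of -2.42 (-3.53 to -1.58). Of its UMIs in tag 1, 56 came from a single rod, and without the top cell of each tag the ratio was -1.88. Psmd6 had 57, 8 and 18 UMIs and a ratio of -2.04 (-3.40 to -1.04). Psmd7, partner of the deubiquitinase Psmd14, had 68, 23 and 14 UMIs and a ratio of -0.83 (-1.60 to -0.15). Psmd8 had 187, 67 and 23 UMIs and a ratio of -0.76 (-1.19 to -0.35), or 344, 202 and 421 CPM. Tag 3 had the highest CPM for each of these 4 genes, which were chosen for being lower in tag 2, but none of them met the minimum of expected UMIs in tag 3. For Psmd7, 10 of the 14 UMIs in tag 3 were in 1 rod, for Psmd8 11 of 23, for Psmd6 8 of 18 and for Psmd12 9 of 17. Without the top cell of each tag, the ratio of tag 3 over tag 1 was -0.46 for Psmd7 and -0.50 for Psmd8. Psmd6 and Psmd12 stayed higher in tag 3 than in tag 1 without the top cells. For each gene this leaves out 1 of 20 rods in tag 3 but 1 of 182 in tag 1, so it weighs more on tag 3.

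The lid did not move as a block. Psmd11, another scaffold subunit, went the other way with 27, 45 and 4 UMIs, at a ratio of 1.44 (0.73 to 2.20) for tag 2 over tag 1, the highest among the members tested. Psmd14 had 43, 7 and 0 UMIs and fell under the minimum of expected UMIs, as did Psmd3 (13, 16 and 0) and Psmd13 (26, 22 and 0).

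Outside the lid, 3 members were lower in tag 2 and 2 were higher. The base scaffold Psmd2 had 68, 21 and 0 UMIs, at a ratio of -0.95 (-1.76 to -0.25). The ATPase Psmc6 had 136, 48 and 9 UMIs, at -0.78 (-1.29 to -0.30), while another ATPase, Psmc5, had 97, 98 and 5 UMIs and was higher at 0.73 (0.31 to 1.15). The alpha subunit Psma5 had 54, 21 and 19 UMIs at -0.62, with an interval that included 0 (-1.45 to 0.11). The beta subunit Psmb4 had 128, 122 and 16 UMIs and was higher at 0.65 (0.28 to 1.02). The ATPase and lid members thus differed in sign within their own groups.

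Of the constitutive catalytic subunits, Psmb5 and Psmb6 were under the fold when all UMIs were counted. Psmb5 had 197, 83 and 21 UMIs (362, 251 and 384 CPM) at -0.52 (-0.92 to -0.15) for tag 2 over tag 1, and 26 of its 83 UMIs in tag 2 came from 1 rod. Without the top cell of each tag its ratio was -0.96, which is past the fold. Psmb6 had 215, 137 and 18 UMIs (395, 414 and 329 CPM) at 0.07 (-0.25 to 0.38). Psmb7 had 31, 16 and 1 UMIs, too few for the minimum.

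In tag 3, few members could be assessed. Over tag 1, 2 members had enough expected UMIs, Psma3 at 0.51 and Psmb6 at -0.23, and 0 passed the fold, where the background was 14.3% higher and 16.9% lower among 385 genes. Over tag 2, 2 members were tested and Psmb1 passed at 0.68, against a background of 23% higher and 17.3% lower among 370 genes. Psmb1 had 30 UMIs in tag 3, of which 12 were in 1 rod, and without the top cells its ratio was 0.07. Leaving out the top cell takes 1 of 20 rods in tag 3 but 1 of 128 in tag 2, so it weighs more on tag 3.

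Of the other pathway genes, 14 had enough UMIs in tags 1 and 2. The ubiquitin-activating enzyme Uba1 was higher in tag 2 at 1.46 (26, 44 and 0 UMIs). The shuttle factor Ubqln1 was at -0.60 (38, 15 and 1 UMIs), with an interval that included 0. The median of the 14 was -0.06, equal to that of all genes tested at this precision. Pomp was at 0.05 and Sem1, a small lid component, at -0.23.

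The immunoproteasome was nearly absent from rods. Psmb8 had 1 UMI in 1 of 342 rods, in tag 2, Psmb9 had 0, and Psmb10 had 12 UMIs in 5 rods. In the 17 microglia-like barcodes, Psmb8 had 24 UMIs in 5 barcodes (29.4%, 95% exact interval 10.3% to 56.0%) with at most 9 in any of them, at 355 CPM. That was above its share of 0.147% in all 680 rod-like barcodes (0.00372% to 0.817%), where the 1 UMI corresponds to 0.520 CPM. The median depths were 3372 and 2431 UMIs. Psmb10 had 11 UMIs in 2 microglia-like barcodes (163 CPM), of which 9 were in 1 of them. Psmb9 was at 0 in them as well, which allows up to 17.6% of barcodes with a UMI at the limit of 3 counts, or 19.5% as the exact upper limit used for the other shares.

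At 1300 UMIs per cell, Psmb8, Psmb9 or Psmb10 was found in 4 of 11 microglia-like and 4 of 575 rod-like barcodes. Of the 17 microglia-like barcodes, 4 carried both Psmb8 and a constitutive catalytic subunit, 1 carried Psmb8 without such a subunit, 3 carried a constitutive subunit without Psmb8 and 9 carried neither. Barcodes with Psmb8 had a median of 4549 UMIs and those without it 1838, so depth moved with detection. Of the 11 microglia-like barcodes that passed the filter and the doublet call, 4 held Psmb8, with 15 UMIs. All 11 microglia markers were detected in the class, and 5 of 15 rod markers were at 0.

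Of the activator pair, Psme1 had 13 UMIs in 4 microglia-like barcodes and 4 UMIs in 1 rod. Psme2 had 10 UMIs in 4 microglia-like barcodes and 24 UMIs in 9 rods. Of these 23 UMIs in microglia-like barcodes, 11 were in 1 barcode, and 8 were in the 11 barcodes that passed. At 1300 UMIs per cell, Psme1 or Psme2 was found in 2 of 11 microglia-like barcodes (18.2%, 2.28% to 51.8%) and 8 of 575 rod-like barcodes (1.39%, 0.603% to 2.72%), and these intervals overlapped. Its near-identical copy Psme2b had 3 and 2 UMIs, and the split of reads between these genes is uncertain. Psme3, the nuclear activator, had 13 UMIs in rods, and Psme4, the large nuclear activator, also had 13. Between tags, the activators together had 25, 28 and 3 UMIs, which put tag 2 over tag 1 at 0.88 (0.05 to 1.72), and the thinned shares of rods with an activator UMI were 4.29% (1.74% to 8.65%) in tag 1 and 5.93% (2.42% to 11.8%) in tag 2. The inducible group had 2, 4 and 1 UMIs in the 3 tags. The summed inducible group was higher in microglia-like than in rod-like barcodes by 5.93 on the log2 scale (5.07 to 6.91, 35 against 16 UMIs). Of these 35 UMIs, 18 were in 1 barcode that did not pass the filter, and 17 were in the 11 barcodes that passed. The activators were higher in microglia-like barcodes by 3.20 (2.52 to 3.80, 29 against 91 UMIs). The core chaperones were also higher in microglia-like barcodes, at 1.60 (1.02 to 2.09, 34 against 324 UMIs). That was not particular to this class, since bipolar-like barcodes were at 0.94 (0.61 to 1.25, 107 UMIs). In Müller glia-like ones the core chaperones were at 0.48 (-0.13 to 1.00, 30 UMIs). On the scale without mitochondrial genes this was 1.35 (0.73 to 1.87). The activators were higher than in rod-like barcodes in bipolar-like ones as well, at 1.08 (0.45 to 1.66, 33 UMIs in 12 of 45 barcodes). Bipolar-like barcodes were deeper, at a median of 7778 UMIs against 2431. At 1300 UMIs per cell, an activator UMI was found in 5 of 39 bipolar-like barcodes (12.8%, 4.30% to 27.4%). Among rod-like ones it was 22 of 575 (3.83%, 2.41% to 5.74%), and these intervals overlapped. In Müller glia-like barcodes the activators were at 1.42 (0.52 to 2.16, 16 UMIs in 4 of 82 barcodes). Within tag 2, Psme4 gave 20 of the 30 activator UMIs of bipolar-like barcodes, Psme1 9 and Psme2 0. Rod-like barcodes of tag 2 had 10, 0 and 10 UMIs of these genes. In microglia-like barcodes the core was at -0.02 (-0.23 to 0.18) and the cap at -0.73 (-1.07 to -0.42). The tissue-specific Psmb11 was at 0 in the 342 rods and had 3 UMIs in 3 of the 680 rod-like barcodes.

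**Figure D3:**
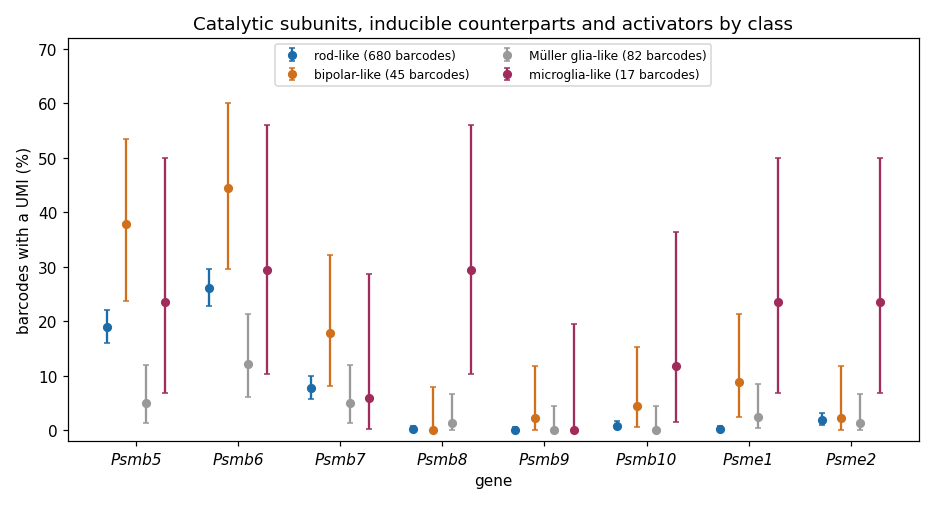
Share of barcodes with a UMI of the catalytic subunits, their inducible counterparts and the activators Psme1 and Psme2 in 4 classes of barcodes with no filter, with 95% exact binomial intervals. Psmb8 was found in 29.4% of microglia-like and 0.147% of rod-like barcodes, and Psmb9 stayed at 0 in both.

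Across the other classes, the comparison depended on the scale. All classes in this comparison were taken without a filter, since few non-rod barcodes passed it. Members held 0.527% of UMIs in the 680 rod-like barcodes, 0.472% in 45 bipolar-like, 0.519% in 10 cone-like, 0.566% in 17 microglia-like and 0.334% in 82 Müller glia-like barcodes. The pooled mitochondrial share was 16.0% in rod-like and 54.2% in Müller glia-like barcodes. Outside mitochondrial genes, Malat1 and haemoglobin, the shares were 0.633%, 0.631%, 0.668%, 0.615% and 0.732% in the same order. Müller glia-like barcodes were thus lowest on the first scale, at a log2 ratio to rod-like of -0.66 (-0.80 to -0.52), and above rod-like on the second, at 0.21 (0.07 to 0.35). Of these 82 barcodes, 74 were absent from the tag matrix, and their median depth was 1146 UMIs. In this class, 3 of 11 Müller glia markers were detected in at least 25% of barcodes. The Müller glia markers summed to 7896 CPM and the rod markers to 6454 CPM, against 793 and 110317 CPM in rod-like barcodes. The name of the class thus rests on few markers.

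The share in the 189 barcodes that were not in the tag matrix also depended on the scale. They overlap the classes above, with 74 Müller glia-like and 101 rod-like barcodes among them. Their share was 0.339% of all UMIs and 0.650% on the second scale, with a pooled mitochondrial share of 47.5%. The 101 rod-like ones alone held 0.391% and 0.662%, with a pooled mitochondrial share of 40.8%. The 285 rod-like barcodes above the mitochondrial limit held 0.492% and 0.670%.

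**Figure D4:**
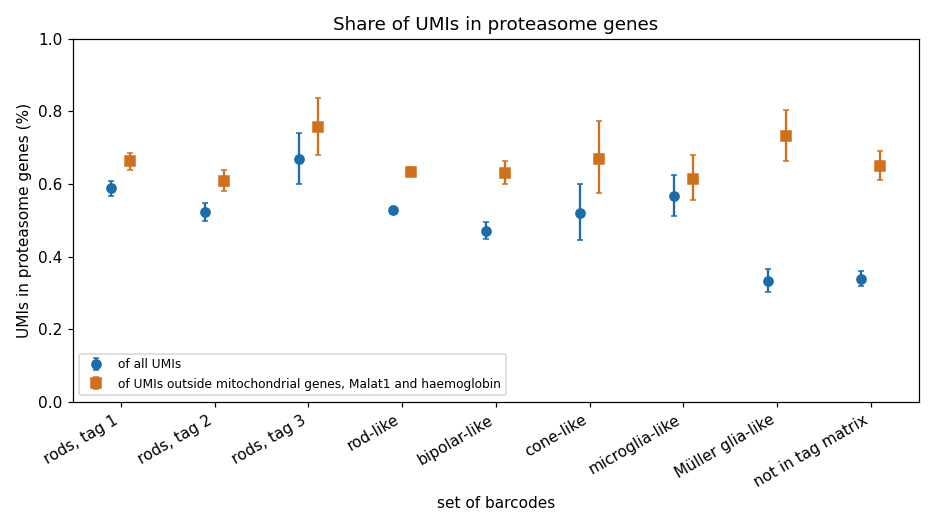
Share of UMIs in the 48 proteasome genes, with 95% exact intervals, as a percentage of all UMIs (circles) and of UMIs outside mitochondrial genes, Malat1 and haemoglobin (squares). Müller glia-like barcodes are lowest among the named classes on the first measure (0.334%) and highest among them on the second (0.732%).

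Between bipolar-like and rod-like barcodes, 2 of 29 members tested were higher and 9 lower by 1.5-fold or more, and over all 2246 genes 20.2% were higher and 37.9% lower. Both counts of members were below this background, and the median size of the log2 ratio was 0.51 among the members and 0.77 over all genes tested. Psmg4, a core chaperone, was higher at 1.45 (0.98 to 1.89) with 62 UMIs in 10 of 45 bipolar-like barcodes against 132 in 34 of 680. These counts of barcodes were not matched for depth, at medians of 7778 and 2431 UMIs. Psmd6 was higher at 0.73 (0.21 to 1.21). The lowest were the ATPases Psmc3 at -1.40 (-2.12 to -0.80) and Psmc5 at -1.32 (-1.98 to -0.77), and Psmd11 was at -1.25 (-2.29 to -0.47). As a group, the ATPases were at -0.74 (-0.98 to -0.51), and at -0.58 on the scale without mitochondrial genes, while the lid was at -0.07 (-0.28 to 0.12). Psmc6, Psmc2, Psmb3, Psmb4, Psmd4 and Psmd8 made up the rest of those lower. Of the 45 bipolar-like barcodes, 31 were called to tag 2, as were 280 of the 680 rod-like ones. Within tag 2, the summed members were at -0.09 (-0.18 to -0.0032) for bipolar-like over rod-like barcodes, the ATPases at -0.61 (-0.88 to -0.36) and the lid at 0.24 (-0.0034 to 0.47). Psmg4 was at 1.84, Psmd6 at 1.31, Psmc3 at -1.34, Psmc5 at -1.35 and Psmd11 at -1.72 there, while Psmc6 (-0.52), Psmd4 (-0.33) and Psmd8 (-0.18) were under the fold.

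In Müller glia-like barcodes, 14 members were tested, 0 were higher and 9 were lower, and over all 858 genes 8.04% were higher and 64% lower. Psmb2 was lowest at -1.83 (6 UMIs) and Psmd8 was at -1.54 (11 UMIs). Psmb6 was at 0.11 (-0.33 to 0.50) with 54 UMIs in 10 barcodes, and Psmc5 at 0.28 (-0.32 to 0.79). These ratios are on all UMIs, and the large mitochondrial share of this class moves with each of them.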

How the data were processed

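The authors made the expression matrix with Cell Ranger against mm10. The submitters' processing notes name version 6.1.2 and the file header gives 3.1.0. The deposited values are UMI counts per gene and barcode, not normalized. The deposited tag matrix holds counts per tag and barcode, and the deposited call table gives each barcode's tag and, as a fraction, the probability of carrying a single tag, both made by the authors.

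Here, barcodes were clustered with scanpy 1.11.5 and leidenalg 0.10.2 (2000 variable genes, 30 components, 15 neighbours, resolution 1), with the members, other pathway genes, Lmna, Lbr, Malat1, haemoglobin and mitochondrial genes left out. Clusters were named from marker lists. A clustering of the filtered cells alone left a cluster of 40 barcodes unnamed, so classes come from the clustering of all 834 barcodes, a choice made after the clusters were seen. Of these, 409 passed the limits on genes and mitochondrial share, and Scrublet (expected rate 6%) called 29 doublets. Counts were summed per tag or class, 0.5 UMIs were added, and log2 ratios of CPM were formed with exact conditional binomial intervals. Shares have exact Clopper-Pearson and sums exact Poisson intervals, computed with scipy 1.17.1. A gene was called past 1.5-fold where at least 20 UMIs were expected in both groups. The ratios and calls were run on simulated counts drawn per pooled tag, with no clumping of UMIs within cells. That run cannot check the width of the intervals or the calls in these data, where UMIs clump.

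The members and lists were chosen with earlier results of these data known. Values are printed for the catalytic subunits and their inducible counterparts, the activators, the 3 members with most UMIs in each group, and each member past the fold. Others named (Psmb7 overlaps, Psmd3, Psmd13, Psmd14) were picked after their values were seen. Not every gene in the list of other pathway genes is reported here. Alternatives covered the cell filter, doublets, class, tag call, scaling, counting, weighting, added UMIs, minimum, fold and clustering.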

Additional observations from a re-analysis of the deposited data

How the results depend on the processing

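No paired analysis was possible because each tag is a single pool of cells and the labels give no replicate numbers, with no replicate to leave out. Intervals cover counting error only, and with 20 rods in tag 3 most members were below the minimum of expected UMIs there. Where a value changed, the cause was not tested except where the setting itself leaves fewer rods. Leaving out the top cell of each gene takes 1 of 20 rods in tag 3 and 1 of 10 cone-like barcodes, but 1 of 182 rods in tag 1. That setting thus weighs more on small groups.

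The share of UMIs in the 48 members was 0.588% in tag 1, against 0.541% with no filter on cells, 0.518% with a strict tag call, 0.886% with 1 count per gene and cell and 0.662% outside mitochondrial genes, Malat1 and haemoglobin. In tag 2, counting each gene once per cell gave 0.824%, with 0.495% without the top cell of each gene and 0.608% on the scale without mitochondrial genes. In tag 3 these values were 0.971%, 0.567% and 0.756%.

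The summed log2 ratio of tag 2 over tag 1 was -0.031 with no filter and reversed to 0.059 with a strict tag call. That of tag 3 over tag 1 was 0.39 with a strict tag call, which leaves 3 rods of tag 3, and reversed to -0.031 without top cells. The alpha ring ratio of tag 2 over tag 1 reversed to 0.0084 with no filter and 0.39 with a strict tag call, and that of tag 3 over tag 1 to -0.029 in all cells that passed. The ratios of tag 3 over tag 1 with a strict tag call reversed to 0.49 for the ATPases and -0.59 for the lid.

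The number of members past 1.5-fold for tag 2 over tag 1 was 10, and it was 6 with no filter, 2 with a strict tag call, 2 with 1 count per gene and cell, 4 with a minimum of 50 expected UMIs and 3 at 2-fold. For tag 3 over tag 1 it was 0, and it was 3 with no filter, 2 with doublet calls kept, 2 in all cells that passed and 5 with a minimum of 10 expected UMIs. For tag 3 over tag 2 it was 1, and it was 3 with no filter, 3 with doublet calls kept, 2 in all cells that passed and 6 with a minimum of 10. It was 0 there with a strict tag call, 1 count per gene and cell, mean CPM over cells, top cells left out, a minimum of 50, the 2-fold limit and, added after seeing the data, rods named from the clustering of filtered cells.

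Of classes over rod-like barcodes, bipolar-like was -0.0055 on the scale without mitochondrial genes and, added after seeing the data, -0.092 within tag 2, cone-like -0.72 without top cells, and microglia-like -0.21 by mean CPM over cells and -0.38 without top cells. Müller glia-like was -0.37 by mean CPM over cells, -1.09 without top cells and -0.37 at resolution 0.5, and reversed to 0.015 with 1 count per gene and cell and to 0.21 without mitochondrial genes. Barcodes not in the tag matrix were at -0.64, and at -0.15 with 1 count per gene and cell, -0.49 by mean CPM over cells and -0.84 without top cells, and reversed to 0.039 without mitochondrial genes.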
